A study of Homo sapiens with 24 samples.

Results

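Host genes of microRNAs and small nucleolar RNAs (snoRNAs) were followed through activation of p53 in a human tumour cell line. The group was taken from the deposited gene table by symbol: every gene named SNHG followed by digits, every gene whose symbol begins with MIR and ends with HG, and GAS5. The rule selected 89 of 58825 genes, made up of 25 SNHG genes, 63 MIR host genes and GAS5. The rule reads symbols alone.

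Polyadenylated RNA was sequenced from 24 libraries of SK-HEP-1, an established line from a human liver tumour whose cells the labels class as endothelial. All lines were made for CRISPR interference, in which a catalytically inactive Cas9 that carries a repressor is led by a guide RNA to a promoter. The 4 PURPL lines (sg2, sg4, sg5 and sg6) carried 1 guide each against PURPL, itself a p53-induced long noncoding RNA, and the 2 NTC lines (NTC1 and NTC2) carried non-targeting guides. Each line received Nutlin-3a at 10 µM, a small molecule that keeps MDM2 off p53 and lets p53 accumulate, or its vehicle DMSO, for 6 h, in 2 biological replicates by the labels. The sample titles number them 1 and 3, and they are called harvests here. The titles do not say that libraries with the same number were harvested together. There were thus 8 libraries of PURPL lines with Nutlin-3a, 8 of PURPL lines with DMSO, 4 of NTC lines with Nutlin-3a and 4 of NTC lines with DMSO. Each guide was carried by a single line, so a guide and its line cannot be told apart. The guides were against 1 gene, which makes the PURPL lines 4 lines of 1 target.

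Most vertebrate snoRNAs are cut out of the introns of a longer transcript, and the spliced exons of that transcript are what a polyadenylated library records. Box C/D snoRNAs guide ribose methylation and box H/ACA snoRNAs guide pseudouridylation of ribosomal and other RNAs. The exons of several SNHG transcripts contain stop codons that expose them to nonsense-mediated decay when they are translated, and GAS5 is the textbook case. A microRNA (miRNA) is cut by Drosha from a hairpin in an intron or exon of its primary transcript, exported by exportin 5, trimmed by Dicer and loaded into an Argonaute protein, where bases 2 to 8 of the mature RNA, the seed, pair with target messages. Transcription of the miR-34a gene by p53 is among the best described links between p53 and small RNAs. A host transcript level is therefore not the level of the mature small RNA that it carries.

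The mature miRNAs of the hosts on which the results turn follow, with the seed in capitals. The sequences and positions are those of RefSeq on GRCh38.p14, whose table listed 93 of the 99 miRNA genes found inside the hosts. The miR-34a sequence lies at chr1:9151735-9151756 on the minus strand, in a hairpin that overlaps an exon of MIR34AHG. The hairpins of miR-22, miR-137, miR-4458 and the 6 hairpins of MIR17HG also overlap exons of their hosts, while miR-503 lies in an intron of MIR503HG. The let-7a sequence, carried by MIR100HG, is shown because it shares the seed GAGGUAG with miR-4458.
hsa-miR-34a-5p: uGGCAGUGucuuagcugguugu
hsa-miR-22-3p: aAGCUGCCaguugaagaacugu
hsa-miR-137-3p: uUAUUGCUuaagaauacgcguag
hsa-miR-503-5p: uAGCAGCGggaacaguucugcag
hsa-miR-4458: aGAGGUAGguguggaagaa
hsa-let-7a-5p: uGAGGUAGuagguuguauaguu
hsa-miR-17-5p: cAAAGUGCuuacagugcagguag
hsa-miR-20a-5p: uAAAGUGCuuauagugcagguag
hsa-miR-18a-5p: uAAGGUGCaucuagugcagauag
hsa-miR-19a-3p: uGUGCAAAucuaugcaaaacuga
hsa-miR-19b-3p: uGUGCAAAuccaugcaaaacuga
hsa-miR-92a-3p: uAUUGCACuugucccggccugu

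Box C/D snoRNAs of SNHG1, the snoRNA host whose level changed most clearly, are shown next, as transcribed in GENCODE release 29 on hg38 and written with T for U. Capitals mark the GATGA of box C, searched in the first 20 bases, and the CTGA of box D, searched in the last 16. Each of the snoRNA genes annotated in SNHG1 overlaps an exon of at least 1 annotated transcript of the host. Their positions on the minus strand are chr11:62855564-62855632 (SNORD25), chr11:62855292-62855366 (SNORD26), chr11:62855012-62855083 (SNORD27) and chr11:62853663-62853732 (SNORD30).
SNORD25: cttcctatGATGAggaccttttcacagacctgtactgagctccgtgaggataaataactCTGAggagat
SNORD26: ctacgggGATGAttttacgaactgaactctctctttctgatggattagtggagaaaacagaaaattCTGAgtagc
SNORD27: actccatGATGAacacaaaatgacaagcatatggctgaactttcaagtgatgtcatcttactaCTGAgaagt
SNORD30: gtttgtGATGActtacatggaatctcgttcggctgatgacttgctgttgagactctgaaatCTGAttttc

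Library totals of the estimated counts ran from 66.4 M to 92.1 M (median 74.2 M). PURPL itself averaged 1.84 CPM with Nutlin-3a and 0.556 CPM with DMSO in the PURPL lines, against 32.7 CPM with Nutlin-3a and 8.35 CPM with DMSO in the NTC lines. CDKN1A, the p53-induced inhibitor of cyclin-dependent kinases, rose with Nutlin-3a by 4.07 (log2) in PURPL lines and by 3.59 in NTC lines. The endothelial markers PECAM1, CDH5, KDR, VWF and TEK stayed at or below 0.274 CPM in every library, so these markers go against the endothelial class of the labels, and the hepatocyte markers ALB, APOA1, TTR and HNF4A stayed at or below 0.0295 CPM. In bulk RNA, fewer cells of a type and less RNA per cell cannot be told apart.

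One library stood apart, that of sg2 with Nutlin-3a at harvest 1. GC content was taken from the longest annotated transcript of each gene. Among the 9 tested host genes with at least 55% GC, 7 were higher in this library than in every one of the 7 other Nutlin-3a libraries of PURPL lines, with a median log2 difference from their median of 1.72. Among the 17 with less than 45% GC, 11 were lower in it than in all 7, with a median of -0.51. Counts of genes called in response to Nutlin-3a are therefore given with this library and without it, as are the values of most named genes.

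**Figure D1:**
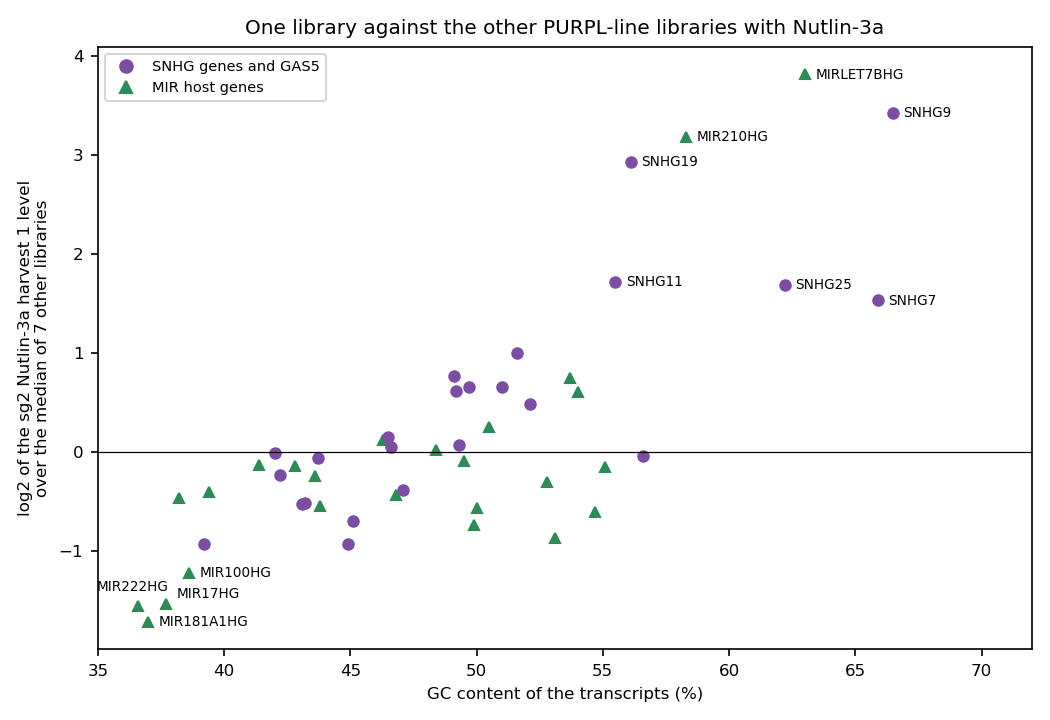
Log2 of the level in the sg2 Nutlin-3a harvest 1 library over the median of the 7 other Nutlin-3a libraries of PURPL lines (y axis), against the GC content of the longest transcript of each gene in percent (x axis), for the 49 tested host genes. SNHG genes and GAS5 are circles, MIR host genes triangles; the hosts with at least 55% GC, such as SNHG9 and MIR210HG, lie mostly above 0 and MIR100HG, MIR17HG and MIR222HG below it.

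Of the 89 host genes, 49 passed the filter on low counts: 24 of the 26 SNHG genes and GAS5, and 25 of the 63 MIR host genes. The other 40 were not tested. Of these, 25 had a rounded count of 0 in every library, among them MIR155HG, the host of the lymphoid miR-155, MIR122HG, the host of the hepatocyte miR-122, MIR200CHG, MIR205HG, MIR31HG, MIR202HG, MIR124-2HG, MIR302CHG, MIR1-1HG, MIR133A1HG, MIR7-3HG, MIR217HG, MIR663AHG, MIR4290HG, MIR3663HG, MIR670HG, MIR7515HG, MIR4300HG, MIR3945HG, MIR4307HG, MIR381HG, MIR3976HG, MIR4527HG, MIR548A1HG and SNHG27. The remaining 15 had counts but never exceeded 0.119 CPM: MIR497HG, MIRLET7A1HG, MIR194-2HG, MIR4500HG, MIR378D2HG, MIR3681HG, MIR3142HG, MIR2052HG, MIR583HG, MIR3150BHG, MIR4713HG, MIR4422HG, MIR1302-2HG, MIR2117HG and SNHG22.

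The host genes together took 0.131% to 0.17% of the counts of a library, and a few of them took most of that. SNHG29 alone held 36.6% of the counts of the group and the top 3 genes 59.3%, while all MIR host genes together held 16.6%. Over the 24 libraries SNHG29, which hosts SNORD49A, SNORD49B and SNORD65, averaged 537 CPM, GAS5 203 CPM, SNHG16 130 CPM, SNHG1 81.9 CPM, MIR4435-2HG 79.5 CPM and MIR137HG 74.9 CPM. Per kilobase of annotated exon the levels were 143 CPM for SNHG29, 56 for GAS5, 24.2 for SNHG16, 21.8 for SNHG1, 10.4 for MIR137HG and 6.07 for MIR4435-2HG, so MIR137HG stood above MIR4435-2HG on this scale. In all, 32 of the 89 averaged at least 1 CPM and 16 at least 10 CPM.

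**Figure D2:**
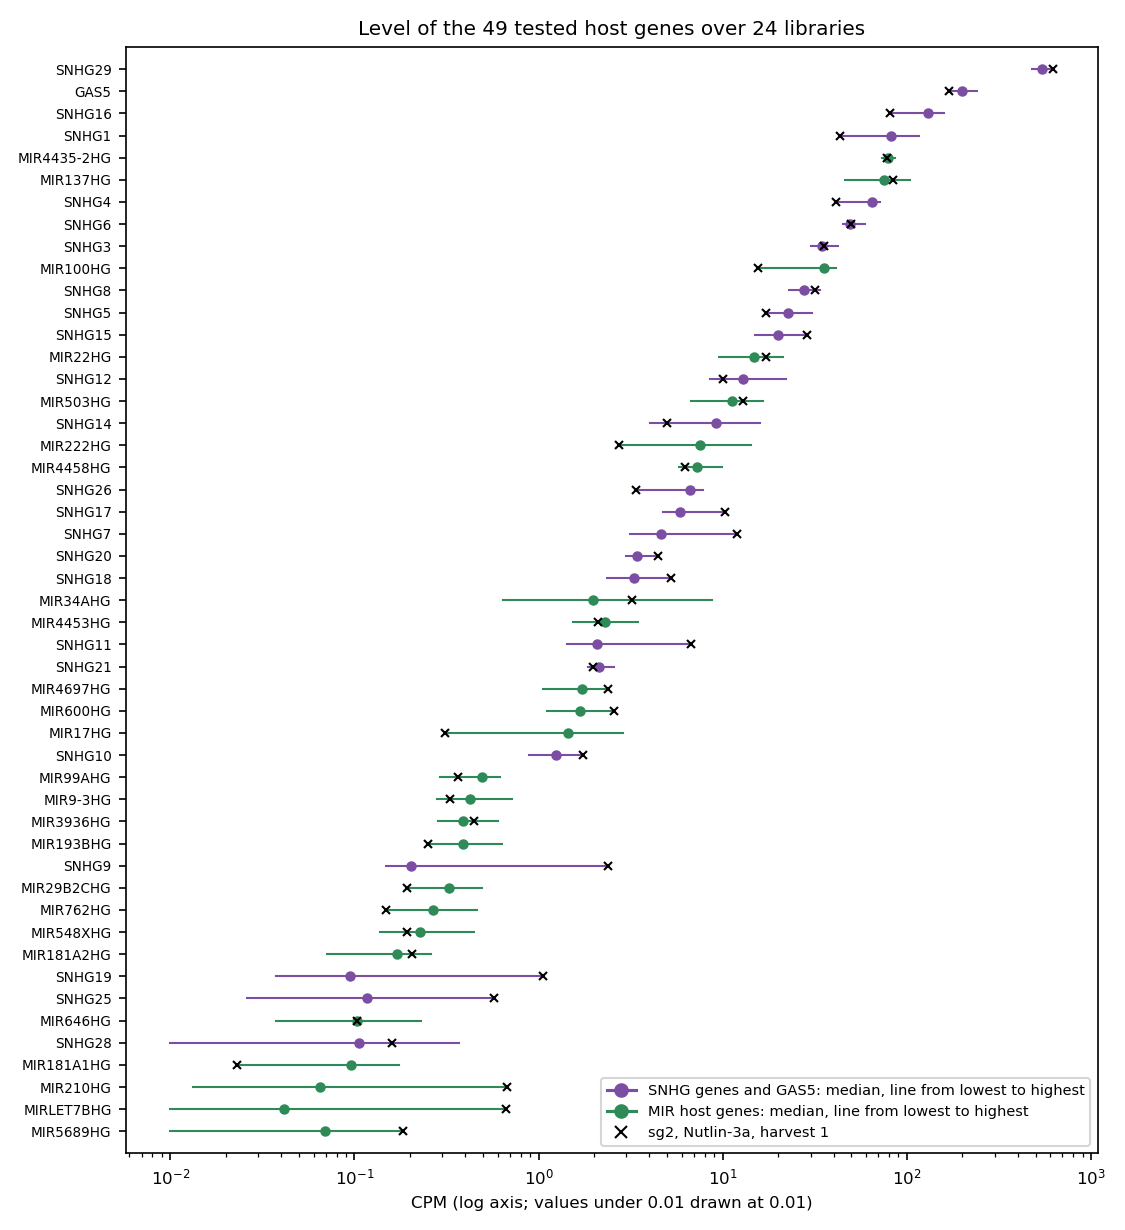
Level of each of the 49 tested host genes in CPM (x axis, log scale), ordered by mean level, with the median over 24 libraries as a point, a line from the lowest to the highest library and a cross for the sg2 Nutlin-3a harvest 1 library. SNHG genes and GAS5 are in purple and MIR host genes in green; SNHG29 lies at the top near 537 CPM, and the cross is at an end of the line for SNHG9, SNHG7, MIR17HG and MIR100HG.

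By the GENCODE 29 annotation, 23 of the 89 genes enclose snoRNA genes on their own strand, 59 enclose miRNA genes, MIR31HG and SNHG20 enclose both, and 5 enclose neither. GAS5 is among these 5, although RefSeq lists 11 snoRNAs within its span. The 235 small RNA genes so enclosed (136 of the snoRNA type and 99 miRNA genes) have rows of their own in the table. Only 27 of these rows held any counts, 451 in all over the 24 libraries, of which SNORA71B in SNHG17 had 115 and SCARNA13 in SNHG10 had 101. With libraries of polyadenylated RNA these rows do not measure the processed small RNAs. Among the 49 tested genes, 23 share exon bases with another gene, 18 of them on the opposite strand. No source used here says if reads were counted by strand, so the values of these genes are uncertain.

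The first question was which host genes answered to Nutlin-3a. In the PURPL lines 12 of the 49 tested host genes were called higher (24.5%), where 17.7% of all 16371 tested genes were called higher. Called lower were 5 host genes (10.2%), against 16.5% of all genes. In the NTC lines 3 were called higher (6.12%, with 4.18% of all genes) and 2 lower (4.08%, with 4.03% of all genes). Calls are at an adjusted p of 0.05 by edgeR's quasi-likelihood test with Benjamini-Hochberg adjustment over all genes, and these p-values measure the spread between the harvests of a line. The 5 genes called in NTC lines were called in the same direction in PURPL lines: MIR34AHG, MIR137HG and MIR4458HG rose, and SNHG1 and SNHG12 fell. The PURPL lines give 8 libraries a treatment where the NTC lines give 4, and the number called in 1 set of lines and not in the other does not show that the responses differ.

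Without the sg2 Nutlin-3a harvest 1 library, 9 host genes were called higher in PURPL lines, where 15.9% of all 16697 tested genes were, and 7 lower, where 22.7% of all genes were. Of the 17 calls, 14 remained and SNHG9, MIR3936HG and MIR646HG did not, while SNHG7 and MIR4435-2HG were called lower. In NTC lines 3 were then called higher, with 8.88% of all genes, and 5 lower, with 15.9% of all genes, since SNHG15, SNHG17 and MIR17HG joined the 5 that remained. The library is not of an NTC line, but all groups share 1 estimate of the spread and 1 scaling. The median log2 fold change over the 49 genes was 0.09 in PURPL lines, against 0.05 over all genes, and 0.03 in NTC lines, against -0.02 over all genes.

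**Figure D3:**
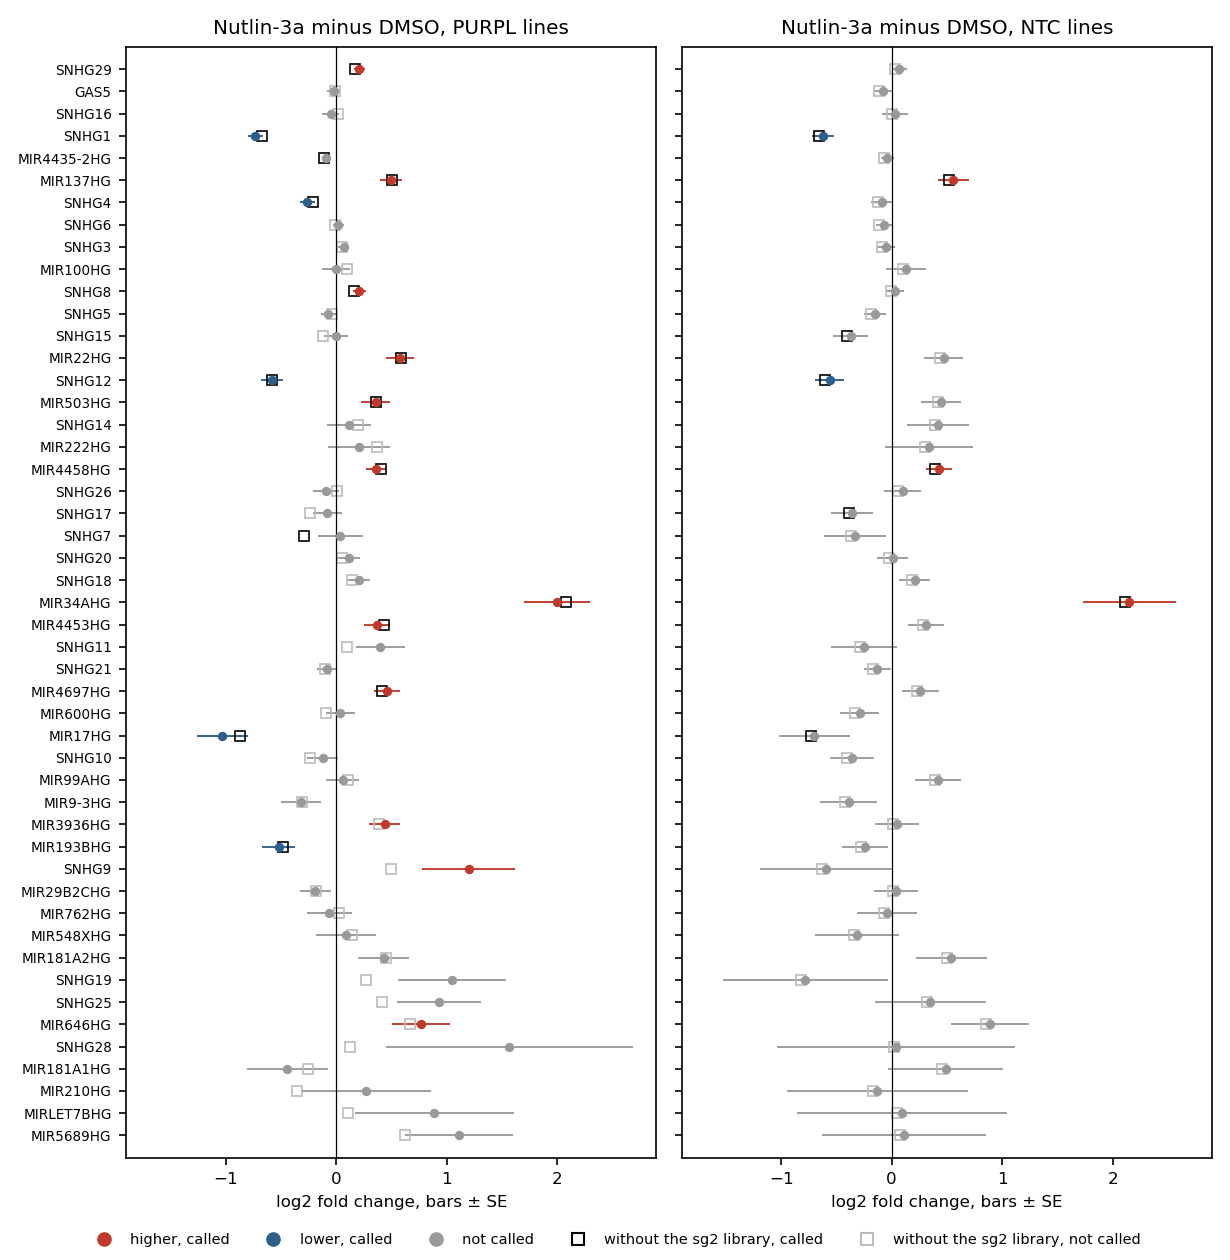
Log2 fold change of Nutlin-3a over DMSO (x axis, points with bars of ± SE) for the 49 tested host genes, ordered by level, in PURPL lines (left) and NTC lines (right). Red points were called higher and blue points lower, and squares give the value without the sg2 Nutlin-3a harvest 1 library, black where called; MIR34AHG lies near 2 in both panels, and SNHG1 and SNHG12 lie below 0 in both.

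MIR34AHG, the host of the tumour suppressor miR-34a, changed most among the genes called in both sets of lines. In PURPL lines its level ranged from 2.24 to 7.06 CPM with Nutlin-3a (median 4.21), against 0.8 to 1.47 CPM with DMSO (median 1.05). The NTC lines had 3.68, 8.7, 3.56 and 4.71 CPM with Nutlin-3a, against 0.793, 1.69, 0.644 and 1.43 CPM with DMSO (NTC1 harvests 1 and 3, then NTC2 harvests 1 and 3). Every Nutlin-3a library lay above every DMSO library, and within each treatment the harvest 3 libraries of the NTC lines were the higher ones. MIR34AHG rose by 2.00 (log2; SE 0.30, edgeR adjusted p = 0.000147) in PURPL lines and by 2.15 (SE 0.42, edgeR adjusted p = 0.00425) in NTC lines, and without the divergent library the values were 2.08 and 2.11, both called. MIR34AHG was called in both sets of lines in each of the 24 fits that leave out 1 library. The gene spans chr1:9148011-9198906 on the minus strand, and the antisense gene LNCTAM34A shares exon bases with it. LNCTAM34A rose as well, by 2.76 (SE 0.25, edgeR adjusted p = 1.15e-06) in PURPL lines and by 1.70 (SE 0.33, edgeR adjusted p = 0.00408) in NTC lines.

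**Figure D4:**
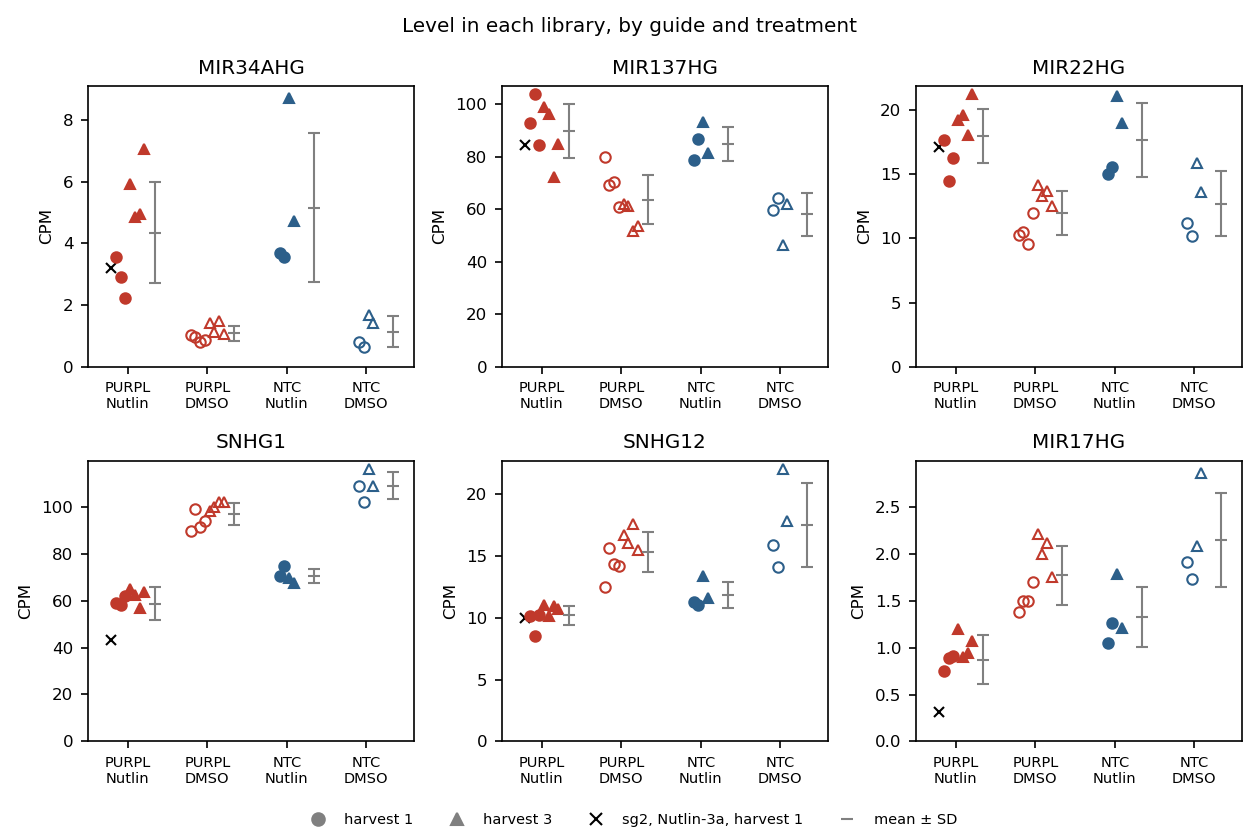
Level in CPM (y axis, from 0) in each library for MIR34AHG, MIR137HG, MIR22HG, SNHG1, SNHG12 and MIR17HG, by guide and treatment (PURPL lines with Nutlin-3a and DMSO, then NTC lines with Nutlin-3a and DMSO). Circles are harvest 1, triangles harvest 3, the cross is the sg2 Nutlin-3a harvest 1 library and grey bars are the mean ± SD; Nutlin-3a and DMSO libraries do not overlap for MIR34AHG, SNHG1 and SNHG12 in either set of lines.

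MIR137HG, which hosts miR-137, a regulator of neuronal differentiation, was the most abundant host gene that rose in both sets of lines. Its level in PURPL lines was 72.4 to 104 CPM with Nutlin-3a (median 88.7), against 51.5 to 80 CPM with DMSO (median 61.5), and these ranges overlap. In NTC lines it was 78.7, 93.3, 86.7 and 81.2 CPM with Nutlin-3a, against 59.5, 46.3, 64.3 and 61.9 CPM with DMSO, with no overlap. The log2 fold change was 0.50 (SE 0.10, edgeR adjusted p = 0.00116) in PURPL lines and 0.56 (SE 0.14, edgeR adjusted p = 0.0187) in NTC lines, and 0.51 and 0.52 without the divergent library. The gene lies at chr1:97933474-98049863 on the minus strand and shares exon bases with DPYD, which encodes dihydropyrimidine dehydrogenase. DPYD had log2 fold changes of -0.24 (SE 0.11, edgeR adjusted p = 0.105) in PURPL lines and 0.06 (SE 0.16, edgeR adjusted p = 0.919) in NTC lines, neither called.

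MIR4458HG (chr5:8450743-8463095, plus strand) carries miR-4458, which has the let-7 seed. It was at 6.23 to 9.43 CPM (median 8.37) with Nutlin-3a in PURPL lines, against 5.81 to 7.05 CPM (median 6.54) with DMSO. The NTC lines had 8.17, 9.97, 8.78 and 9.17 CPM with Nutlin-3a, against 6.57, 7.39, 6.16 and 6.76 CPM with DMSO. The NTC groups did not overlap, and the PURPL groups overlapped only through the divergent library at 6.23 CPM. MIR4458HG rose by 0.36 (SE 0.09, edgeR adjusted p = 0.00619) in PURPL lines and by 0.43 (SE 0.12, edgeR adjusted p = 0.0438) in NTC lines, on the log2 scale, and by 0.41 and 0.39 without that library, both called. Its call in NTC lines was close to the threshold and held in 2 of the 24 fits that leave out 1 library each, with values of 0.29 to 0.45. Among the tested host genes, the seed GAGGUAG is also carried by miRNAs of MIR100HG, MIR99AHG and MIRLET7BHG. These had log2 fold changes of -0.00, 0.06 and 0.89 in PURPL lines and 0.13, 0.42 and 0.09 in NTC lines, and none was called. The 0.89 of MIRLET7BHG includes the divergent library at 0.663 CPM, where the other Nutlin-3a libraries of PURPL lines held 0.0131 to 0.181 CPM. MIRLET7A1HG and MIR4500HG, which were not tested, also enclose miRNAs with this seed.

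MIR22HG, the host of the conserved miR-22, rose in PURPL lines, with 14.5 to 21.3 CPM under Nutlin-3a (median 17.9), against 9.58 to 14.2 CPM under DMSO (median 12.2). These groups did not overlap, and the log2 fold change was 0.58 (SE 0.13, edgeR adjusted p = 0.00297), or 0.59 without the divergent library, again called. The NTC lines were at 15, 21.1, 15.6 and 19 CPM with Nutlin-3a, against 11.2, 15.9, 10.2 and 13.6 CPM with DMSO. The NTC ranges overlap, since the NTC1 harvest 3 library with DMSO lay above 2 of the Nutlin-3a libraries, and the difference of 0.47 (SE 0.18, edgeR adjusted p = 0.135) was not called. Within each NTC line and harvest number the Nutlin-3a library was the higher one. Within each NTC line and treatment the harvest 3 library was above that of harvest 1, so the ranges overlap only across harvest numbers. The difference was called in 1 of 32 alternative fits, that with the harvest number as a replicate block (edgeR adjusted p = 0.00449). MIR22HG lies at chr17:1711493-1717174 on the minus strand.

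MIR503HG (chrX:134543337-134546632, minus strand) encloses the miR-503 hairpin and shares exon bases with MIR424, and both miRNAs are known to repress G1 cyclins. It was at 9.01 to 14.5 CPM (median 12.4) with Nutlin-3a in PURPL lines, against 6.72 to 12.2 CPM (median 9.25) with DMSO. In NTC lines it was at 13.2, 16.6, 14.9 and 12.7 CPM with Nutlin-3a, against 10.3, 13.6, 9.2 and 9.14 CPM with DMSO. Both pairs of ranges overlap. MIR503HG rose by 0.36 (log2; SE 0.13, edgeR adjusted p = 0.0419) in PURPL lines, also 0.36 and called without the divergent library but called in 6 of the 24 fits that leave out 1 library each, and the difference of 0.45 in NTC lines (SE 0.18, edgeR adjusted p = 0.163) was not called.

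MIR4453HG was at 2.11 to 3.48 CPM (median 2.47) with Nutlin-3a in PURPL lines, against 1.53 to 2.53 CPM (median 1.91) with DMSO, and it rose by 0.37 (log2; SE 0.12, edgeR adjusted p = 0.0272), or 0.43 without the divergent library. Its NTC values were 2.56, 3.16, 2.56 and 2.64 CPM with Nutlin-3a, against 2.5, 1.8, 2.31 and 2.17 CPM with DMSO, which did not overlap but were not called (0.31, SE 0.16, edgeR adjusted p = 0.332). MIR646HG was scarce, at 0.0682 to 0.229 CPM (median 0.143) with Nutlin-3a, against 0.0373 to 0.122 CPM (median 0.077) with DMSO in PURPL lines. Its log2 fold change there was 0.77 (SE 0.26, edgeR adjusted p = 0.0327), and 0.67 and not called without the divergent library. In NTC lines MIR646HG was at 0.208, 0.0949, 0.136 and 0.175 CPM with Nutlin-3a, against 0.0397, 0.0972, 0.0889 and 0.104 CPM with DMSO (0.89, SE 0.35, edgeR adjusted p = 0.155, not called). Another pair of MIR host genes were called higher in PURPL lines. MIR4697HG rose by 0.46 (edgeR adjusted p = 0.00846) and MIR3936HG by 0.44 (edgeR adjusted p = 0.0269), and MIR3936HG was no longer called at 0.39 without the divergent library. MIR3936HG was scarce, at 0.348 to 0.602 CPM with Nutlin-3a in PURPL lines.

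MIR17HG, the primary transcript of the miR-17-92 cluster that MYC is known to activate, had the largest fall among the MIR host genes called in PURPL lines. Its 6 hairpins give the miR-17 and miR-20a seed AAAGUGC, the miR-19 seed GUGCAAA and the miR-18a and miR-92a seeds shown above. In PURPL lines it was at 0.309 to 1.2 CPM (median 0.906) with Nutlin-3a, against 1.38 to 2.22 CPM (median 1.73) with DMSO, with no overlap. The lowest of these values was the divergent library, and the other Nutlin-3a libraries held at least 0.75 CPM. The NTC values were 1.05, 1.79, 1.26 and 1.21 CPM with Nutlin-3a, against 1.92, 2.09, 1.73 and 2.87 CPM with DMSO, where the ranges overlap. MIR17HG fell by 1.03 (log2; SE 0.23, edgeR adjusted p = 0.00353) in PURPL lines. The difference of -0.70 in NTC lines (SE 0.32, edgeR adjusted p = 0.241) was not called. Without the divergent library the values were -0.87 and -0.73, and both were called. The gene lies at chr13:91347820-91354579 on the plus strand. MIR193BHG also fell in PURPL lines, by 0.52 (log2; edgeR adjusted p = 0.0163), or 0.48 without the divergent library, both called. It was scarce, at 0.249 to 0.382 CPM with Nutlin-3a in these lines.

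Among the snoRNA hosts, SNHG1 had the smallest p in both sets of lines. Its level in PURPL lines was 43.3 to 65 CPM (median 60.4) with Nutlin-3a, against 89.6 to 102 CPM (median 98.7) with DMSO. In NTC lines it was 70.6, 69.7, 74.7 and 67.5 CPM with Nutlin-3a, against 109, 116, 102 and 109 CPM with DMSO. The groups did not overlap in either set of lines, and the lowest library was the divergent one. SNHG1 fell by 0.73 (log2; SE 0.07, edgeR adjusted p = 2.51e-06) in PURPL lines and by 0.62 (SE 0.10, edgeR adjusted p = 0.000865) in NTC lines, or by 0.67 and 0.66 without that library. The gene spans chr11:62851988-62855914 on the minus strand and carries the box C/D snoRNAs printed above.

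SNHG12 (chr1:28578538-28583132, minus strand) carries the H/ACA snoRNAs SNORA16A, SNORA44 and SNORA61 and the box C/D snoRNA SNORD99. It was at 8.53 to 11 CPM (median 10.2) with Nutlin-3a in PURPL lines, against 12.5 to 17.6 CPM (median 15.6) with DMSO. The NTC lines had 11.3, 13.4, 11 and 11.6 CPM with Nutlin-3a, against 15.9, 22, 14.1 and 17.8 CPM with DMSO. No Nutlin-3a library reached a DMSO library of the same lines. The highest NTC value, 22 CPM, was that of NTC1 with DMSO at harvest 3. The call of SNHG12 in NTC lines held in 20 of the 24 fits that leave out 1 library each. It did not hold without that NTC1 library. SNHG12 fell by 0.58 (log2; SE 0.10, edgeR adjusted p = 0.000308) in PURPL lines and by 0.56 (SE 0.13, edgeR adjusted p = 0.0168) in NTC lines, and by 0.58 and 0.60 without the divergent library. TRNAU1AP lies antisense to it and shares exon bases.

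SNHG15 and SNHG17 were called in NTC lines when the divergent library was left out and not with every library. SNHG15 (chr7:44983023-44986961, minus strand), which hosts SNORA9, was at 15.5 to 28.6 CPM (median 18.8) with Nutlin-3a in PURPL lines, against 16.3 to 21.9 CPM (median 20.2) with DMSO. The NTC lines had 17.6, 19.8, 15 and 17.9 CPM with Nutlin-3a, against 22.2, 27.7, 20.6 and 20.2 CPM with DMSO. The NTC groups did not overlap, whereas in PURPL lines the divergent library at 28.6 CPM lay above all others and the other 7 Nutlin-3a libraries were at 15.5 to 21.3 CPM. The log2 fold change of SNHG15 was -0.00 (SE 0.11, edgeR adjusted p = 0.991) in PURPL lines and -0.37 (SE 0.16, edgeR adjusted p = 0.226) in NTC lines. Without the divergent library it was -0.12 (not called) and -0.40 (called).

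SNHG17, whose introns hold snoRNAs of the SNORA71 family, was at 4.73 to 10.3 CPM (median 5.42) with Nutlin-3a in PURPL lines, against 4.91 to 6.86 CPM (median 6.41) with DMSO. The NTC lines had 5.81, 6.14, 5.47 and 5.84 CPM with Nutlin-3a, against 7.95, 10.1, 6.44 and 5.86 CPM with DMSO. Both pairs of ranges overlap. Its log2 fold change was -0.08 (SE 0.13, edgeR adjusted p = 0.64) in PURPL lines and -0.36 (SE 0.19, edgeR adjusted p = 0.323) in NTC lines, and without the divergent library -0.24 (not called) and -0.39 (called).

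The other snoRNA hosts that were called moved less in log2 terms, apart from SNHG9. SNHG29 rose in PURPL lines, with 533 to 625 CPM under Nutlin-3a (median 570), against 479 to 507 CPM under DMSO (median 501), and no overlap. Its log2 fold change there was 0.21 (edgeR adjusted p = 0.00368), or 0.17 without the divergent library. In NTC lines SNHG29 was at 566, 540, 558 and 556 CPM with Nutlin-3a, against 547, 589, 509 and 478 CPM with DMSO, and the difference of 0.07 was not called (edgeR adjusted p = 0.689). LRRC75A lies antisense to SNHG29. SNHG8, the host of SNORA24, rose by 0.21 (edgeR adjusted p = 0.0177) in PURPL lines. SNHG4 fell there by 0.26 (edgeR adjusted p = 0.0144), and both were also called without the divergent library. SNHG4 shares exon bases with MATR3, which has an entry that averaged 1020 CPM over the 24 libraries and another at 95.2 CPM. Each had -0.21 in PURPL lines (SE 0.11 and 0.14, edgeR adjusted p = 0.145 and 0.267), and neither was called. Whether reads of MATR3 enter the value of SNHG4 was not tested. SNHG9, with 66.5% GC in its longest transcript, was called higher in PURPL lines, by 1.20 on the log2 scale (SE 0.42, edgeR adjusted p = 0.0414). This call came through the divergent library, which held 2.38 CPM where the other Nutlin-3a libraries held 0.156 to 0.598 CPM. Without that library the value was 0.50 and not called. SNHG7 held 12 CPM in that library and 3.14 to 5.3 CPM in the other 7, and its log2 fold change was 0.04 with it and -0.29, called, without it.

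GAS5, named for its accumulation in growth-arrested cells, differed by less than the spread between libraries. Its level was 169 to 217 CPM (median 197) with Nutlin-3a in PURPL lines, against 181 to 222 CPM (median 196) with DMSO. The NTC lines had 218, 197, 228 and 200 CPM with Nutlin-3a, against 239, 224, 221 and 205 CPM with DMSO. The log2 fold change was -0.02 (SE 0.06, edgeR adjusted p = 0.816) in PURPL lines and -0.08 (SE 0.08, edgeR adjusted p = 0.739) in NTC lines. GAS5 lies at chr1:173863900-173868882 on the minus strand.

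SNHG16, host of the SNORD1 snoRNAs, was also not called. Its level was 81.1 to 138 CPM (median 130) with Nutlin-3a in PURPL lines, against 125 to 131 CPM (median 128) with DMSO, where the lowest value was the divergent library, and the log2 fold change was -0.05 (edgeR adjusted p = 0.662). In NTC lines SNHG16 held 137, 140, 141 and 137 CPM with Nutlin-3a, against 131, 160, 127 and 127 CPM with DMSO (0.03, edgeR adjusted p = 0.949). MIR4435-2HG was at 74.9 to 81.6 CPM (median 77.4) with Nutlin-3a in PURPL lines, against 79.1 to 85.9 CPM (median 82.1) with DMSO. Its log2 fold change of -0.09 there (SE 0.04) was not called, whereas -0.11 without the divergent library was, and in NTC lines it was -0.04 (edgeR adjusted p = 0.863). Leaving out any 1 library gave MIR4435-2HG values of -0.13 to -0.11 in PURPL lines, called in 5 of the 24 fits. The shift was thus not particular to the divergent library. In NTC lines the same fits gave -0.12 to -0.06. BCL2L11, the gene of the death-promoting protein BIM, lies antisense to MIR4435-2HG and fell by 0.99 (log2) in PURPL lines and by 0.92 in NTC lines.

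MIR100HG, the host of miR-100, let-7a and miR-125b, was at 15.6 to 41.3 CPM (median 35.9) with Nutlin-3a in PURPL lines, against 30.3 to 37 CPM (median 31.9) with DMSO, and the divergent library was again the lowest. In NTC lines it was at 31.4, 40.4, 38.1 and 37.4 CPM with Nutlin-3a, against 29.7, 30.6, 36.2 and 38.7 CPM with DMSO. The log2 fold changes of MIR100HG were -0.00 (SE 0.13, edgeR adjusted p = 0.987) in PURPL lines and 0.13 (SE 0.18, edgeR adjusted p = 0.816) in NTC lines, and 0.10 without the divergent library in PURPL lines, not called. MIR210HG, the host of the hypoxia-induced miR-210, stayed at or below 0.674 CPM in every library of PURPL lines. Its log2 fold change was 0.27 (SE 0.59, edgeR adjusted p = 0.737) in PURPL lines and -0.13 (edgeR adjusted p = 0.972) in NTC lines, with -0.35 in PURPL lines without the divergent library.

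By family, the 25 tested MIR host genes gave 9 called higher and 2 lower in PURPL lines (median log2 fold change 0.27), and the 24 tested among the SNHG genes and GAS5 gave 3 higher and 3 lower (median 0.03), beside the 17.7% of all genes called higher and 16.5% lower. Without the divergent library the counts were 7 higher and 3 lower (median 0.14) for MIR host genes, and 2 higher and 4 lower (median 0.01) for SNHG genes and GAS5. Of all genes, 15.9% were then called higher and 22.7% lower. In NTC lines, where 4.18% of all genes were called higher and 4.03% lower, 3 MIR host genes were called higher and 0 lower (median 0.13), and 0 of the SNHG genes and GAS5 higher and 2 lower (median -0.08). Leaving that library out gave 3 higher and 1 lower for MIR host genes (median 0.10), and 0 higher and 4 lower for SNHG genes and GAS5 (median -0.12). The shares over all genes in NTC lines were then 8.88% higher and 15.9% lower.

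Genes outside the group that also enclose small RNA genes were counted in the same way. Of 233 tested protein-coding hosts of snoRNAs, 39 were called higher (16.7%) and 63 lower (27%) in PURPL lines, and 3 higher (1.29%) and 15 lower (6.44%) in NTC lines. These were 30 higher and 79 lower in PURPL lines, and 10 higher and 49 lower in NTC lines, when the divergent library was left out. Of 750 protein-coding hosts of miRNAs, 158 were called higher (21.1%) and 113 lower (15.1%) in PURPL lines, and 32 higher (4.27%) and 33 lower (4.4%) in NTC lines. Without that library 753 were tested, of which 124 were higher and 173 lower in PURPL lines, and 61 higher and 137 lower in NTC lines. The shares over all genes were 17.7% higher and 16.5% lower in PURPL lines, and 4.18% higher and 4.03% lower in NTC lines; without that library they were 15.9% and 22.7% in PURPL lines, and 8.88% and 15.9% in NTC lines. Noncoding hosts were fewer: of 23 for snoRNAs, 0 were called higher and 4 lower in PURPL lines, and of 53 for miRNAs, 5 higher and 3 lower. With that library left out, 1 of 24 was higher and 4 lower for snoRNAs, and 7 of 54 higher and 6 lower for miRNAs, all in PURPL lines. No test compares these groups with the SNHG and MIR host genes.

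Proteins that process the small RNAs were read beside their hosts. Of 16 tested miRNA processing genes, 1 was called higher (6.25%) and 9 lower (56.2%) in PURPL lines, beside the 17.7% and 16.5% of all genes. In NTC lines 0 were called in either direction by edgeR's quasi-likelihood test, beside 4.18% of all genes higher and 4.03% lower. DESeq2 called 0 there. An unadjusted p under 0.05 by edgeR was found for 3 in NTC lines, with 19.5% of all genes. XPO5, which encodes exportin 5, fell by 0.42 (log2; SE 0.06, edgeR adjusted p = 8.29e-05), DROSHA by 0.32 (SE 0.05, edgeR adjusted p = 0.000219), AGO2 by 0.43 (SE 0.11, edgeR adjusted p = 0.00721) and the helicase gene DDX17 by 0.45 (SE 0.13, edgeR adjusted p = 0.0161) in PURPL lines. Without the divergent library 9 were called lower and 0 higher in PURPL lines, since TARBP2, which encodes a partner of Dicer and had 0.73, was lost, and 4 were called lower in NTC lines. Of all genes, 15.9% were then higher and 22.7% lower in PURPL lines, and 8.88% higher and 15.9% lower in NTC lines.

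Of 19 tested genes for snoRNA-protein particles and their assembly, 2 were called higher (10.5%) and 8 lower (42.1%) in PURPL lines, where 17.7% of all genes were higher and 16.5% lower. In NTC lines 1 was called higher (5.26%) and 3 lower (15.8%), where 4.18% of all genes were higher and 4.03% lower. NOLC1, which encodes a nucleolar chaperone of snoRNA particles, fell by 0.48 (log2; SE 0.04, edgeR adjusted p = 5.31e-07) in PURPL lines and by 0.47 (SE 0.06, edgeR adjusted p = 9.02e-05) in NTC lines. DKC1, the pseudouridine synthase of H/ACA particles, fell by 0.57 (SE 0.06, edgeR adjusted p = 5.15e-06) in PURPL lines and by 0.45 (SE 0.09, edgeR adjusted p = 0.00329) in NTC lines. NOP56, a core protein of box C/D particles, fell by 0.41 (SE 0.06, edgeR adjusted p = 0.000109) in PURPL lines and by 0.51 (SE 0.08, edgeR adjusted p = 0.00107) in NTC lines, and NAF1, an assembly factor of H/ACA particles, fell by 0.52 (SE 0.08, edgeR adjusted p = 0.000243) in PURPL lines. TGS1, which trimethylates the caps of small RNAs, was called higher in both, by 0.27 in PURPL lines and by 0.41 in NTC lines. Without the divergent library 1 was called higher and 10 lower in PURPL lines, where the helicase gene RUVBL2, at 1.00 with every library, was no longer called, and 1 higher and 8 lower in NTC lines. The shares over all genes rose too for lower calls, to 22.7% in PURPL lines and 15.9% in NTC lines. For higher calls they were 15.9% in PURPL lines and 8.88% in NTC lines.

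Of 14 tested genes for nonsense-mediated decay, 2 were called higher (14.3%, with 17.7% of all genes) and 5 lower (35.7%, with 16.5% of all genes) in PURPL lines, and 0 higher and 1 lower (7.14%, with 4.03% of all genes) in NTC lines. The counts without the divergent library were again 2 and 5 in PURPL lines, with 15.9% of all genes higher and 22.7% lower. In NTC lines they were 1 higher and 2 lower, with 8.88% of all genes higher and 15.9% lower. UPF3B fell by 0.51 (log2; SE 0.07, edgeR adjusted p = 5.06e-05) and EIF4A3, of the exon junction complex, by 0.28 (SE 0.06, edgeR adjusted p = 0.00292), while SMG6, the endonuclease of the pathway, rose by 0.48 (SE 0.09, edgeR adjusted p = 0.00108) and SMG9, of the SMG1 kinase complex, by 0.79 (SE 0.19, edgeR adjusted p = 0.00605) in PURPL lines. EIF4A3 was the one called in NTC lines, where it fell by 0.35 (SE 0.08, edgeR adjusted p = 0.0172).

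The second question was whether host genes differed between PURPL lines and NTC lines, tested over lines because the guide was assigned to the line. With DMSO 0 of the 49 tested host genes were called (0% of 16648 genes higher and 0.00601%, a single gene, lower), by edgeR or by DESeq2. Under an unadjusted p of 0.05 were 5 host genes, with 3.17% of all genes. The log2 difference, PURPL minus NTC, was negative in 40 of 49, with a median of -0.10 against -0.01 over all genes. SNHG1 averaged 93.9, 99.6, 96.9 and 97.9 CPM in sg2, sg4, sg5 and sg6, against 112 and 106 CPM in NTC1 and NTC2. The PURPL lines did not overlap the NTC lines, but SNHG1 is shown here for its small p. The share of all genes separated like this is not given. The log2 difference of SNHG1 was -0.17 (SE 0.06, edgeR adjusted p = 0.825). MIR222HG, the host of miR-221 and miR-222, which repress the CDK inhibitor gene CDKN1B, averaged 7.02, 7.06, 7.01 and 6.39 CPM in those lines, against 8.02 and 7.81 CPM (-0.23, SE 0.09, edgeR adjusted p = 0.825). GAS5 averaged 205, 198, 201 and 188 CPM in the PURPL lines, against 232 and 213 CPM in the NTC lines (-0.17, SE 0.07, edgeR adjusted p = 0.825). Without NTC2, with NTC1 left as the sole NTC line and assumed to vary like the others, 19 of the 49 host genes were called lower and 0 higher in PURPL lines. In that fit 18.9% of all 17167 genes were called lower and 17.9% higher, so a large part of all genes was called along with them.

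With Nutlin-3a 0 of 49 host genes were called (0% of 16900 genes in either direction) by edgeR or DESeq2. An unadjusted p under 0.05 was found for 3 of them, with 1.69% of all genes. MIR5689HG, at or below 0.183 CPM in each of these libraries, had a log2 difference of 0.99 (SE 0.28, edgeR adjusted p = 0.676). MIR17HG averaged 0.755, 0.827, 0.919 and 0.989 CPM in sg2, sg4, sg5 and sg6, against 1.42 and 1.23 CPM in NTC1 and NTC2, a difference of -0.62 (SE 0.19, edgeR adjusted p = 0.676), or -0.45 without the divergent library. SNHG1 averaged 54.1, 60.5, 57.5 and 62.9 CPM, against 70.2 and 71.1 CPM (-0.27, SE 0.09, edgeR adjusted p = 0.676), or -0.20 without that library. The averages of the PURPL lines for SNHG1 and MIR17HG lay below both NTC lines, as for SNHG1 in DMSO, without passing the adjustment. Both genes are shown here for their small p, and the share of all genes separated like this is not given.

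The difference of the Nutlin-3a responses, PURPL lines minus NTC lines, was called for 0 of 50 host genes tested there (0% of 17264 genes in either direction) by edgeR or DESeq2. Of all genes 3.6% had an unadjusted p under 0.05, as did 3 of the host genes. These were SNHG9 (1.87, SE 0.65, edgeR adjusted p = 0.533), SNHG19 (1.98, SE 0.72, edgeR adjusted p = 0.533) and SNHG15 (0.35, SE 0.14, edgeR adjusted p = 0.533), which were 1.20, 1.28 and 0.26 without the divergent library. In sg2 SNHG9 averaged 1.28 CPM with Nutlin-3a and 0.209 CPM with DMSO, and in NTC1 0.199 CPM with Nutlin-3a and 0.381 CPM with DMSO. For the 5 host genes called in both sets of lines, this test called no difference of responses, which does not show that the responses were equal.

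Differences among the 6 lines, averaged over treatments, had an unadjusted p under 0.05 for 3 of 49 host genes, with 6.42% of all genes. They were called for 0 host genes by edgeR (0.116% of all genes) and for 1 by DESeq2. That gene was SNHG18, which averaged 3.97, 3.63, 2.63 and 3.04 CPM in sg2, sg4, sg5 and sg6 and 3.69 and 3.04 CPM in NTC1 and NTC2 (edgeR adjusted p = 0.665). MIR762HG averaged 0.236 to 0.293 CPM in the PURPL lines, against 0.428 CPM in NTC1 and 0.252 CPM in NTC2, and SNHG1 74 to 80.4 CPM in the PURPL lines, against 91.2 and 88.4 CPM in NTC1 and NTC2. SNHG11 was highest in sg2, at 3.32 CPM, through the divergent library with 6.71 CPM.

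Transcripts of the translation machinery begin with a C in a run of pyrimidines, the terminal oligopyrimidine start, which is also known for several snoRNA hosts. In RefSeq (GRCh38.p14), 5 of the 22 genes with a listed start among the SNHG genes and GAS5 (SNHG12, SNHG18, SNHG19, SNHG4 and SNHG5) begin with C in a run of at least 5 C or T letters, as does 1 of 47 MIR host genes (MIR762HG), against 5.14% of 27305 genes. Some listed starts lie outside the GENCODE 29 span of the gene. That of GAS5, at chr1:173869016-173869045, is beyond its GENCODE end at 173868882, and that of SNHG14, at chr15:24823608, is before its GENCODE start at 24978583. Neither was counted as such a run, and starts inside these spans were not examined. The first 30 transcribed bases are shown for SNHG12 and SNHG4, which fell in PURPL lines, for SNHG5, which was not called, and for SNHG1. The run is in capitals where it starts the transcript. The p53 half-site consensus was found, on either strand, in the windows from 250 bases before to 50 after the start of 6 of 69 host genes (MIR100HG, MIR17HG, MIR302CHG, MIR497HG, MIR99AHG and SNHG28), against 8.06% of all genes. The window of MIR34AHG held none, which says only that these letters are not in this window.
SNHG12, chr1:28581844-28581873, minus strand: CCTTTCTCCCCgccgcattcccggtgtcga
SNHG4, chr5:139274101-139274130, plus strand: CCCTTTCCCCTCCggcctctgccggtgctg
SNHG5, chr6:85678704-85678733, minus strand: CTTTTacgtcggccttcgcgagcgtctggg
SNHG1, chr11:62855856-62855885, minus strand: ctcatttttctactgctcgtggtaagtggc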

How the data were processed

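The authors deposited RSEM estimated counts per gene, with genome hg38 and the tools cutadapt, STAR, RSEM and DESeq2 per the submitters' processing notes. The sources used here give neither their versions nor the use of strand in counting. Of the values of a library, 5.6% to 7.16% were not whole. The 45 rows of second pseudoautosomal copies (0.0222% of counts) were added to their X rows, and counts were rounded. Gene IDs were matched to GENCODE 29 without version (58552 of 58825, and all 89 host genes).

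Counts were tested with edgeR 4.0.16 (R 4.3.3): TMM, filterByExpr with minimum count 10, robust quasi-likelihood F test, Benjamini-Hochberg over all genes, called at 0.05. Levels are TMM-scaled CPM, where 1 CPM stands for 66.4 to 92.1 counts. Nutlin-3a responses and line differences came from 12 group means over 24 libraries (12 residual degrees of freedom), and guide comparisons from sums per line, 4 against 2, the difference of responses with a term for each line. Tests were run on simulated counts with known changes and 1 fixed dispersion. The simulation had no random variation between lines, no divergent library and no GC trend, so it does not cover these features.

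Host genes and lists were chosen with earlier results of these data known. Named with values were host genes called with or without the divergent library (12 in full), the 6 most abundant, 9 fixed genes, the 3 smallest p per guide comparison, the 4 smallest among lines, and up to 4 called members of each processing list.

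Alternatives were RLE size factors, other filters (none, or 1 CPM), DESeq2 1.42.0, removal of each library's trend on GC content, sums per line, harvests alone, a harvest block, and leaving out libraries or lines. Removal of the GC trend without the divergent library was added after seeing the data.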

Additional observations from a re-analysis of the deposited data

Results flagged for a closer look

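Among the 31 host genes named in the text, 124 groups of 4 or 8 libraries were examined for a lowest or highest library far from its group by Dixon's criterion. It picked 16 groups of 13 genes, where chance alone picks about 1 in 20 groups. Of the 16, 10 were in the sg2 Nutlin-3a harvest 1 library, the library described in the report.

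In that library MIR100HG held 15.6 CPM (other Nutlin-3a libraries of PURPL lines 31.8 to 41.3 CPM), SNHG1 43.3 CPM (others 56.7 to 65 CPM) and SNHG16 81.1 CPM (others 120 to 138 CPM). It was high for SNHG15 at 28.6 CPM (others 15.5 to 21.3 CPM), SNHG17 at 10.3 CPM (others 4.73 to 5.87 CPM), SNHG7 at 12 CPM (others 3.14 to 5.3 CPM) and SNHG11 at 6.71 CPM (others 1.83 to 3.25 CPM). It was also high for SNHG9 at 2.38 CPM (others 0.156 to 0.598 CPM), SNHG19 at 1.06 CPM (others 0.0682 to 0.278 CPM) and MIR210HG at 0.674 CPM (others 0.0274 to 0.0834 CPM).

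Outside that library, the NTC1 DMSO harvest 3 library was high for SNHG16 at 160 CPM (others 127 to 131 CPM), SNHG19 at 0.303 CPM (others 0.0777 to 0.0807 CPM) and MIR210HG at 0.173 CPM (others 0.0333 to 0.0461 CPM). MIR3936HG was high in the NTC2 DMSO harvest 1 library, at 0.566 CPM (others 0.344 to 0.367 CPM), and MIR4453HG in the NTC1 Nutlin-3a harvest 3 library, at 3.16 CPM (others 2.56 to 2.64 CPM). SNHG12 was low in the sg5 Nutlin-3a harvest 1 library, at 8.53 CPM (others 10 to 11 CPM).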

How the results depend on the processing

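Host genes called higher in PURPL lines, 12 in the report, were 3 with sums per line and 6 without the filter on low counts, and those called lower, 5 in the report, were 3 without the filter and 8 with the GC trend removed and the divergent library left out. Host genes called lower in NTC lines, 2 in the report, were 7 under that same setting and 1 without the filter. DESeq2 called 1 gene among the 6 lines. The cause of these moves was not tested. For most settings in this section the share of all genes called is not given, so its counts cannot be read as particular to host genes. That share can move as well. Called lower in NTC lines were 4.03% of all genes with every library and 15.9% without the divergent library. RLE size factors, DESeq2 and the 1 CPM filter left the other counts within 1.5 times. Sums per line and the lack of a filter leave fewer degrees of freedom or add scarce genes.

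Leaving out 1 library at a time gave 6 to 17 called higher and 5 to 10 lower in PURPL lines, 1 to 3 higher and 1 to 5 lower in NTC lines, and 0 to 15 among lines. Host genes higher in PURPL lines were 6 without the sg4 Nutlin-3a harvest 1 or the sg6 Nutlin-3a harvest 3 library, and 7 without the DMSO library of sg2 harvest 3, of sg4 at either harvest, of sg5 harvest 1 or of sg6 harvest 1. Those lower were 10 without the sg2 Nutlin-3a harvest 3 library, and the 15 among lines came from the same omission, which leaves the divergent library as the sole one of its group. In NTC lines 1 was higher without NTC1 at harvest 3 in either treatment or without any NTC2 library, and 1 was lower without the NTC1 DMSO harvest 3, NTC1 Nutlin-3a harvest 1, NTC2 DMSO harvest 3 or NTC2 Nutlin-3a harvest 1 library, while 5 were lower without either sg2 Nutlin-3a library. Over lines, 0 to 19 host genes were lower in PURPL lines with DMSO, the 19 without NTC2 (with 18.9% of all genes), and 0 were called in the other guide comparisons.

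With the harvest number as a replicate block, 12 host genes were called higher and 5 lower in PURPL lines, and 4 higher and 2 lower in NTC lines, where MIR22HG was called (0.48, edgeR adjusted p = 0.00449), and SNHG15 in PURPL lines was 0.00. Differences between harvests correlated across the 66 pairs of groups at -0.73 to 0.73 (median 0.09, 32 over 0.1). Some pairs of groups moved together and others in opposite directions, so these correlations cannot decide whether the numbers pair the samples. MIR22HG and MIR34AHG were higher at the higher harvest number in every line and treatment, whereas MIR137HG went both ways. Pairing by harvest number was not tested gene by gene.

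The remaining changes of sign (log2 fold change) concern values that were not called in the report. In PURPL lines with the GC trend removed, GAS5 was 0.18, MIR100HG 0.22, MIR210HG -0.10, SNHG15 0.02, SNHG16 0.07 and SNHG7 -0.59, and with the divergent library also left out GAS5 was 0.04, MIR100HG 0.19, MIR210HG -0.44, SNHG16 0.06 and SNHG7 -0.45. With the 1 CPM filter GAS5 was 0.04, MIR100HG 0.05, SNHG15 0.07 and SNHG16 0.01; with no filter GAS5 was 0.00 and MIR100HG and SNHG15 0.02; with DESeq2 or RLE size factors MIR100HG and SNHG15 were 0.01. In NTC lines with the GC trend removed SNHG16 was -0.02 and SNHG8 -0.00, with the divergent library also left out SNHG16 was -0.05, SNHG29 -0.01 and SNHG8 -0.04, and with the 1 CPM filter MIR4435-2HG was 0.00. MIR222HG in DMSO was 0.09 at harvest 1 alone.

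Leaving out 1 library at a time, values in NTC lines ranged over -0.55 to 0.55 for MIR210HG, -0.13 to 0.19 for MIR3936HG, 0.00 to 0.18 for MIR100HG, -0.13 to 0.08 for SNHG16, -0.05 to 0.06 for SNHG29 and -0.12 to 0.06 for SNHG8. In PURPL lines they ranged over -0.21 to 0.10 for MIR100HG, -0.35 to 0.78 for MIR210HG, -0.12 to 0.06 for SNHG15, -0.18 to 0.02 for SNHG16, -0.24 to 0.00 for SNHG17 and -0.29 to 0.19 for SNHG7. MIR34AHG kept 1.71 to 2.13 in PURPL lines and 1.75 to 2.46 in NTC lines, and SNHG1 -0.82 to -0.67 and -0.74 to -0.63, each called in every one of these fits. In PURPL lines SNHG12, MIR137HG, MIR22HG, MIR17HG, MIR193BHG, MIR4458HG, MIR4697HG, SNHG29 and SNHG4 were also called in all 24, SNHG8 in 15, MIR3936HG and MIR4453HG in 13, MIR646HG in 8, MIR503HG in 6 and SNHG9 in 3. In NTC lines SNHG12 was called in 20 (values -0.76 to -0.47), not without the 4 NTC libraries named for the lower counts, and MIR137HG in 18 (0.44 to 0.58), not without the 6 named for the higher counts. Depth limits the scarce hosts: MIR646HG, MIR193BHG, MIR3936HG, MIR762HG, MIR99AHG, MIRLET7BHG, SNHG9, SNHG19, MIR210HG and MIR5689HG were among those below 1 CPM on average.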
